A study of Rattus norvegicus with 12 samples.

Results

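The genes described here build and run the motile cilium, the beating hair of the ciliated cells that line the conducting airways. The rule that chose them reads only the symbol in the array's annotation, although the set was proposed with earlier results of these data known. The symbol had to begin with Dnah, Dnai, Dnaaf, Tekt, Rsph, Cfap, Ift with a digit, Spag or Bbs, or had to be Foxj1, Ccdc39, Ccdc40, Ccdc65 or Cep162. This gave 97 probe sets for 77 genes out of 31099 probe sets in the table, and Ccdc39 had no probe set. Signals that reached a log2 of 4 in 3 or more of the 12 lungs were retained, namely 71 probe sets for 60 genes out of 16536 retained over the whole array. Of the 26 that were not kept, 18 never reached 4 in any lung (their values lay between 1.93 and 3.48), and 8 reached it in fewer lungs than required. For 7 of those 8 the lungs that reached it were sham placebo lungs 2 or 3 alone. Of the 71 kept, 7 lay under 4 in every CHF lung and so were kept through sham lungs: Ccdc65, Dnaaf1, Dnah7, Dnai1, Tekt4, Cfap107 and Ccdc40. Their CHF values are near background, so the size of their differences is uncertain. They enter the counts of members given here unless a count is said to leave them out, so those counts rest in part on them.

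Whole-lung RNA of 12 rats, all Sprague-Dawley males, was hybridized to Affymetrix GeneChips for the rat, 1 array per lung and 3 lungs in each of 4 groups. Congestive heart failure (CHF) was produced in juvenile rats by banding the aorta above the coronary arteries, and sham rats had the operation without the band. Lungs were taken 9 weeks after surgery. The 4 groups were sham with placebo, CHF with placebo, sham with ketotifen and CHF with ketotifen. Ketotifen, a mast cell stabilizer, was given in drinking water at a daily dose of 1 mg per kg, and the arm named placebo in the labels is called untreated in the design text. The lung was not dissected into airway and parenchyma, so each value mixes all its cells, and in such bulk RNA fewer ciliated cells cannot be told apart from less RNA per ciliated cell. The sources used here give neither the part of the lung taken nor the share of airway in it. Expression is given on the deposited log2 scale, per probe set, and levels were not compared between genes because they are not scaled by length.

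A motile cilium is built around a microtubule axoneme. Dynein arms make the microtubule doublets slide, radial spokes and nexin links turn sliding into bending, and tektins and other proteins stiffen the doublets from within. Dynein assembly factors prepare the dynein arms in the cytoplasm, and Foxj1 is the transcription factor that switches on the motile cilium genes in multiciliated cells. Intraflagellar transport (IFT) trains and the BBSome, a complex that moves membrane cargo, serve motile cilia and also the single non-motile primary cilium that most other cell types carry. The kept genes were therefore divided into a motile set (37 probe sets, 34 genes) and a transport set of IFT and BBSome genes (29 probe sets, 23 genes). Cep162, a centriole protein needed to start the transition zone at the cilium's base, stood apart, as did the 4 probe sets of Spag7 and Spag9. These share a name prefix with axoneme genes, but Spag9 encodes a scaffold protein of kinase signalling.

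Cilium genes are known targets of RFX transcription factors, which bind a promoter element called the X-box. RefSeq promoters of assembly GRCr8, each 300 bases long from 250 bases before to 50 bases after the gene start, were found for 64 of the 77 genes. The X-box was searched on both strands as GT, any 2 bases, CC, any 3 bases, G, any 2 bases and AC, and it occurred in 13 of these 64 promoters (20.3%), against 4.6% of 27457 rat promoters. Among promoters of the motile set, kept or not, 9 of 39 held it (23.1%), and in the transport set 2 of 20 (10%). The FOX core TGTTTAC occurred in 2 member promoters (3.12%, against 3.76% of all), and the CCAAT box in 23 (35.9%, against 37.7%). Several of the 14-base matches read the same pattern on both strands. The windows below are those of kept members that lie wholly before the gene start, shown as the sequences behind the share of X-box matches. Capitals mark the X-box match, and 10 bases are shown on each side, 5′ to 3′ on the strand given.
Tekt1, chr10:57479137-57479170, minus strand: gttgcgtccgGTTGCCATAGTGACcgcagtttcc
Cfap300, chr8:13483623-13483656, plus strand: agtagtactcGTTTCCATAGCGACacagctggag
Cfap298, chr11:43677590-43677623, minus strand: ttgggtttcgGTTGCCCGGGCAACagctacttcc
Cfap20dc, chr15:18661374-18661407, plus strand: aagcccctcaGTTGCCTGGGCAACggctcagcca
Dnaaf5, chr12:20606487-20606520, minus strand: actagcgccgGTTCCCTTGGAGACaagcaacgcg
The match began 39 bases before the gene start of Tekt1, a tektin, and 231 bases before that of Cfap298, a dynein assembly protein. A match of these letters is a description of the sequence and not a measured binding site. Within the motile set, the range of a gene over the 12 lungs had a median of 3.75 log2 units in 8 genes with the X-box letters and 4.19 in 20 genes without them. Over all kept members the order was the opposite, with 3.50 in 10 genes with the letters and 2.34 in 40 without.

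Some lungs stood apart before any group was compared. Sham placebo lungs 2 and 3 had the highest values of most cilium probe sets, as given below. Cardiomyocyte genes (7 genes) had a mean log2 value of 8.29 in sham placebo lung 3, 6.40 in sham ketotifen lung 1 and 9.46 in sham ketotifen lung 2, and between 2.71 and 3.02 in the other 9 lungs. The beta-actin control's 3′ probe set exceeded its 5′ probe set by 4.23 and 3.90 log2 units in sham placebo lungs 2 and 3 and by 4.52 in sham ketotifen lung 2. In the other lungs this measure of RNA quality lay between 2.90 and 3.45. CHF ketotifen arrays 1 and 3 were the closest pair of all (SD of their difference 0.26, next closest pair 0.40).

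Across the 12 lungs the cilium genes were high in the same 2 animals. Of the 71 probe sets, 58 had their highest value in sham placebo lung 2 and 6 in sham placebo lung 3. For 54 of the 71, both of these lungs lay above all other 10 lungs. Among all kept probe sets 15.1% were highest in sham placebo lung 2 and 10.2% had both lungs above the others. In the motile set 32 of 37 probe sets had both lungs on top, and in the transport set 21 of 29. The median range of a probe set over the 12 lungs was 3.74 log2 units in the motile set and 1.78 in the transport set, against 1.15 over all kept probe sets.

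**Figure D1:**
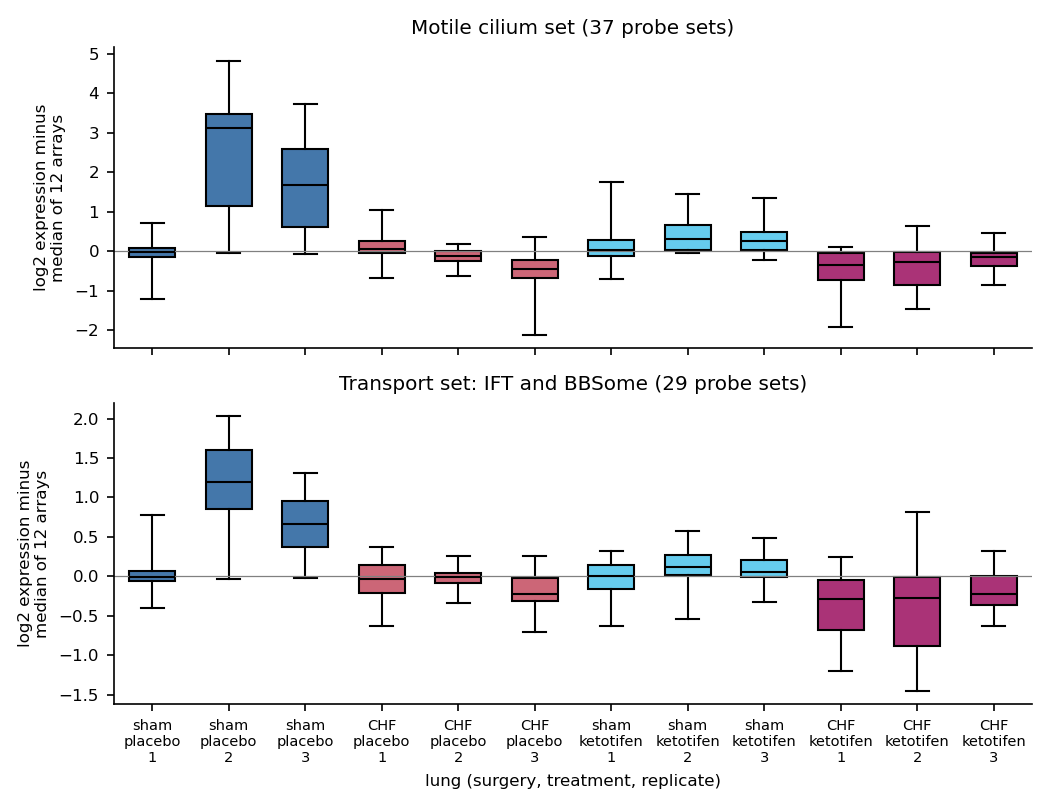
Deviation of each cilium probe set from its median over the 12 arrays (log2), as box plots per lung for the motile set (37 probe sets, top) and the transport set (29 probe sets, bottom). Boxes show the quartiles and the median. Sham placebo lungs 2 and 3 sit at medians of 3.11 and 1.69 in the motile set, while the other 10 lungs have medians between -0.45 and 0.30.

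The plot of deviations per lung shows that the third sham placebo animal, lung 1, did not share this level. Its motile set had a median deviation of -0.02 log2 units, against 3.11 in lung 2 and 1.69 in lung 3. CHF placebo lungs 1 to 3 stood at 0.05, -0.12 and -0.45. The sham ketotifen lungs stood at 0.04, 0.30 and 0.26, and the CHF ketotifen lungs at -0.36, -0.27 and -0.15. In the transport set the deviation was 1.20 in sham placebo lung 2 and 0.66 in lung 3, with the other 10 lungs between -0.29 and 0.12. The 2 high lungs thus shared a group with a lung near the level of the CHF placebo animals.

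The dyneins, the motors of the axoneme, had the widest range. Dnah1, an inner-arm heavy chain, read 4.46, 8.88 and 7.54 in the sham placebo lungs and 4.19, 3.96 and 3.72 in the CHF placebo lungs. It read 4.40, 4.52 and 5.15 in the sham ketotifen lungs and 3.55, 3.47 and 4.01 in the CHF ketotifen lungs. Both CHF groups lay below their sham group without overlap. Dnah7, a second inner-arm heavy chain, read 4.02, 8.26 and 7.19 with sham placebo, and its other 9 lungs lay between 2.57 and 4.24. Dnai1, an outer-arm intermediate chain whose human form is mutated in primary ciliary dyskinesia, read 2.31, 7.25 and 6.14 with sham placebo and 2.49, 2.06 and 2.19 with CHF placebo. With ketotifen it read 4.18, 3.07 and 3.22 in sham rats and 2.01, 2.36 and 2.05 in CHF rats. Only 3 of these 12 values exceeded 4, so that most are near the array's background. Dnai7, a dynein-associated protein, read 5.49, 8.22 and 7.51 with sham placebo and 4.11, 4.16 and 4.52 with CHF placebo, and these groups did not overlap.

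Structural proteins of the axoneme followed the same lungs. Tekt1 read 6.04, 9.62 and 8.49 in the sham placebo lungs, 6.33, 5.62 and 4.06 with CHF placebo, 6.36, 6.81 and 6.49 with sham ketotifen and 5.27, 5.22 and 5.62 with CHF ketotifen. The placebo groups overlapped through sham placebo lung 1, and the ketotifen groups did not overlap. Tekt4 read 3.00, 7.51 and 6.28 with sham placebo, and its other 9 lungs lay between 2.16 and 4.44. Tekt2 and Tekt3 behaved differently: Tekt2 was highest in sham placebo lung 2 at 8.04, but CHF ketotifen lung 2 followed at 8.01 and CHF placebo lung 1 at 7.97. Tekt3 had its highest value, 6.48, in CHF placebo lung 1 and its lowest, 4.69, in sham placebo lung 1. Rsph1, a radial spoke head protein, read 6.47, 9.91 and 8.74 with sham placebo, 6.92, 6.30 and 5.32 with CHF placebo, 6.65, 7.21 and 6.99 with sham ketotifen and 5.79, 5.62 and 6.34 with CHF ketotifen. Rsph9, its partner in the spoke head, read 5.42, 9.15 and 7.75 with sham placebo, and its other 9 lungs lay between 5.32 and 6.43. Ccdc65, a subunit of the nexin-dynein regulatory complex, read 4.07, 7.79 and 6.95 with sham placebo and 3.52, 3.79 and 3.00 with CHF placebo. With ketotifen its values were 4.31, 5.17 and 4.64 in sham rats and 2.98, 2.57 and 3.46 in CHF rats, again without overlap.

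Cfap144, a cilia and flagella associated protein, had 2 kept probe sets. The brighter one read 9.50, 12.77 and 11.26 in the sham placebo lungs and 9.34, 9.32 and 8.92 in the CHF placebo lungs. It read 10.18, 10.42 and 9.98 with sham ketotifen and 8.24, 8.40 and 8.90 with CHF ketotifen. All CHF lungs lay below all sham lungs of both arms. Foxj1, the regulator of the motile cilium program, read 4.62, 7.79 and 6.18 with sham placebo and 4.96, 4.54 and 4.40 with CHF placebo. It read 4.54, 6.05 and 4.68 with sham ketotifen and 4.40, 4.56 and 4.58 with CHF ketotifen. Foxj1 was high in 3 lungs, the 2 high sham placebo lungs and sham ketotifen lung 2, and lay between 4.40 and 4.96 in the other 9. Some genes named for cilia varied less: for Cfap36, whose product binds the cilium GTPase Arl3, the brighter probe set lay between 7.97 and 9.15.

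**Figure D2:**
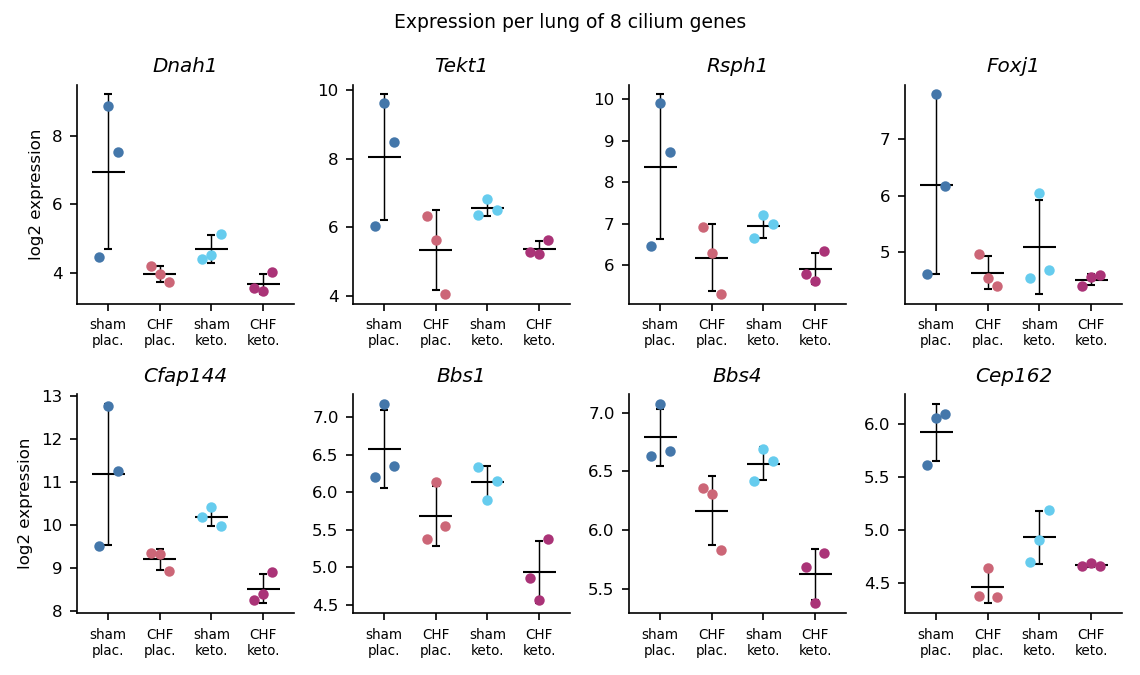
Log2 expression of Dnah1, Tekt1, Rsph1, Foxj1, Cfap144, Bbs1, Bbs4 and Cep162 in each lung (points), by group, with the group mean and SD (n = 3). The axes do not start at 0 and differ between panels. In the first 5 panels the sham placebo lungs spread widely around their mean, with 1 lung near the CHF level, while the 3 sham placebo values of Cep162 lie together between 5.61 and 6.09.

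The transport genes covered a smaller span. Ift172, a subunit of the IFT-B train, read 5.94, 7.86 and 7.20 in the sham placebo lungs and 5.72, 6.11 and 5.79 in the CHF placebo lungs. It read 6.30, 6.09 and 6.35 with sham ketotifen and 5.16, 4.75 and 5.54 with CHF ketotifen. Ift88, another IFT-B subunit, read 6.30, 7.77 and 7.62 with sham placebo and lay between 5.37 and 6.58 in the other 9 lungs. Ift20, which also works at the Golgi, varied least, between 8.66 and 9.08. Of the BBSome subunits, Bbs1 read 6.20, 7.17 and 6.35 with sham placebo, 5.38, 6.13 and 5.55 with CHF placebo, 6.34, 5.90 and 6.15 with sham ketotifen and 4.85, 4.57 and 5.38 with CHF ketotifen. Bbs4 read 6.63, 7.07 and 6.67, then 6.36, 6.31 and 5.83, then 6.42, 6.69 and 6.59, and last 5.69, 5.38 and 5.80 in the same order of groups. In both genes each CHF group lay below the sham group of its arm without overlap, and the sham placebo lungs were not split as in the motile set. All 7 BBSome probe sets were highest in sham placebo lung 2, and 6 of the 7 were lowest in CHF ketotifen lung 2.

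In Cep162 the sham placebo lungs were not split as in most of the motile set. It read 5.61, 6.05 and 6.09 in the 3 sham placebo lungs and 4.38, 4.64 and 4.37 in the CHF placebo lungs. It read 4.69, 4.91 and 5.19 with sham ketotifen and 4.66, 4.69 and 4.66 with CHF ketotifen. All 3 sham placebo lungs, lung 1 included, lay above the other 9. A dim probe set of Ift81, an IFT-B subunit, was likewise highest in all 3 sham placebo lungs, at 4.78, 4.75 and 5.14 with sham placebo and between 3.69 and 4.14 elsewhere. The brightest Ift81 probe set did not: it read 7.71, 9.29 and 8.67 with sham placebo and between 6.78 and 8.19 elsewhere. Dnai7, Dnaaf9 and the brighter Ift46 probe set also had all 3 sham placebo lungs above the other 9. Ift46 read 8.57, 9.06 and 8.65 with sham placebo and at most 8.32 elsewhere. Dnaaf9 read 8.38, 8.36 and 8.44 against at most 8.30, and Dnai7 5.49, 8.22 and 7.51 against at most 5.33. The Spag7 and Spag9 probe sets showed no high lung, with median deviations between -0.30 and 0.21.

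Heart failure was first compared with sham surgery in the placebo arm, where 1 of the 71 cilium probe sets passed the test. Cep162 was 2.75-fold lower in CHF lungs, a log2 difference of -1.46 ± 0.19 (SE, n = 3 against 3, limma adjusted p = 0.0221). A probe set was called if its Benjamini-Hochberg adjusted p in limma, taken over all 16536 kept probe sets, was under 0.05. Of all kept probe sets 0.0242% were called lower and 0.145% higher, and 0 cilium probe sets were called higher. Several axoneme genes differed by more, with larger SEs, and were not called. The difference was -3.01 ± 0.82 (SE) for Dnah1 (limma adjusted p = 0.116) and -2.81 ± 0.58 for Dnai7 (0.0824). For Dnah7 (-3.27), Ccdc65 (-2.84) and Dnaaf1, a dynein assembly factor (-1.86), all CHF values were under 4 and near background, so that these sizes are uncertain. The 2 probe sets of Cfap69, a protein of the central apparatus, stood at -2.37 and -2.22. The CHF placebo values of Dnah1 (3.72 to 4.19) and Cfap69 (3.64 to 4.28) were close to background too, so that their sizes are also uncertain. Next to Cep162 in order of p was the dim Ift81 probe set, at -0.98 ± 0.18 (limma adjusted p = 0.0636), followed after Dnai7 by Ift46, an IFT-B subunit, at -0.68 ± 0.17.

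The direction was shared by most members. Of the 71 differences 65 lay below 0, against 48.2% of all kept probe sets, and the median was -0.92 log2 units against 0.02 over all. At an unadjusted p under 0.05, 46 members were lower and 0 higher, where 9.62% of all probe sets were lower. The groups did not overlap in 21 members that were lower (10.7% of all probe sets) and 2 that were higher, Ift20 and 1 probe set of Spag9 (12.7% of all). The 21 included Dnah7, Dnaaf1, Ccdc65 and Ccdc40, which lay under 4 in every CHF lung. The motile set had a median of -1.68 and the transport set of -0.82. All 4 axonemal dyneins, all 3 radial spoke genes and 6 of 7 BBSome probe sets were lower at the unadjusted level. Of these dyneins, Dnah7 and Dnai1 lay under 4 in every CHF lung. The 6 differences above 0 were small: 0.34 and 0.03 for 2 Spag9 probe sets, 0.33 for Tekt3, 0.11 for Ift20, 0.07 for Spag7 and 0.05 for 1 Ift25 probe set. Spag9 and Ift25 each had another probe set of the opposite sign, at -0.29 and -0.38.

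For most members these placebo differences rested on 2 animals. Without sham placebo lungs 2 and 3, which left 1 lung in that group, the median member difference was -0.14 and 46 of 71 lay below 0. Dnah1 then stood at -0.50 and Dnah7 at -0.80. Without sham placebo lung 1 instead, 49 members were called lower, where 4.49% of all probe sets were called lower (1496 were called in either direction). Without sham placebo lung 2 or lung 3 it was 0 members, with 0 and 10 calls among all probe sets. Cep162 stood at -1.15 ± 0.25 without lungs 2 and 3 (limma adjusted p = 0.51, with 1 sham placebo lung left, assumed to vary like the other groups). With single lungs left out its difference lay between -1.61 and -1.37, and in 6 of the 12 cases its adjusted p rose above 0.05, to at most 0.0929: sham placebo lungs 2 and 3, each CHF placebo lung, and CHF ketotifen lung 3.

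**Figure D3:**
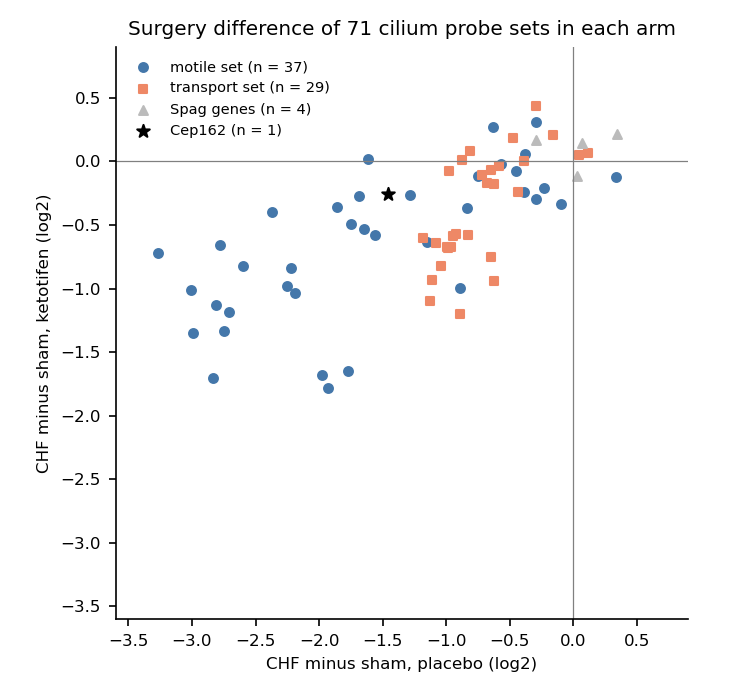
Log2 difference between CHF and sham lungs with placebo (x axis) and with ketotifen (y axis) for each of the 71 kept cilium probe sets. The arms share no arrays. Most points lie below 0 on both axes, the motile set reaches -3.27 with placebo and -1.78 with ketotifen, and Cep162 stands at -1.46 and -0.26.

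In the ketotifen arm CHF and sham lungs were compared in 6 other animals, and 3 members fell. Bbs4 was 1.92-fold lower in CHF lungs, at -0.94 ± 0.20 (SE, n = 3 against 3, limma adjusted p = 0.0156). Bbs1 was 2.29-fold lower at -1.20 ± 0.31 (limma adjusted p = 0.0301). Dnaaf10, a factor that helps fold axonemal dyneins, read 5.67, 5.72 and 5.51 in sham and 4.84, 4.38 and 4.70 in CHF lungs and was 1.99-fold lower at -0.99 ± 0.29 (limma adjusted p = 0.048). Among all kept probe sets 6.61% were called lower in this comparison, so the share called among members, 3 of 71, was not above the background. With single lungs left out, the adjusted p of Bbs4 stayed under 0.05 in 11 of 12 cases, that of Bbs1 in 7 and that of Dnaaf10 in 3. The count of members called was 11 without sham placebo lung 1 (7.34% of all probe sets called lower) and 6 without sham placebo lung 2 (7.15%). It was 0 without CHF ketotifen lung 2 (1.8%). It was 1 without CHF ketotifen lung 1 (3.17%) or any single sham ketotifen lung (2.71% to 3.66%). Dnaaf10 was also not called after quantile normalization or median centring of the arrays.

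The ordering of the lungs was counted as well. In 35 of 71 members (49.3%) every CHF ketotifen lung lay below every sham ketotifen lung, against 20.8% of all kept probe sets, and 1 member lay above (19.2% of all). The 35 included Dnai1, Ccdc65, Dnaaf1, Cfap107 and Ccdc40, which lay under 4 in every CHF lung. In Cfap107 the nearest values were 3.76 (sham) and 3.75 (CHF), in Ccdc40 3.61 and 3.58, and in Dnaaf1 3.85 and 3.83. Of the differences 57 were below 0 (52.7% of all probe sets), with a median of -0.37 against -0.03 over all. At an unadjusted p under 0.05 there were 10 lower members, against 16.2% of all probe sets. The median was -0.53 in the motile set and -0.24 in the transport set. Within roles, it was -1.07 for the axonemal dyneins, -0.98 for the radial spoke genes, -0.60 for the BBSome and -0.09 for the IFT genes. Those above 0 included Ift22, a small GTPase of the IFT-B train, at 0.44 and Cfap418, a protein of photoreceptor cilia, at 0.27, and neither was called.

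The spread used by this test came from all 4 groups and so from sham placebo lungs 1 to 3. With the spread taken from the 2 ketotifen groups alone, the SE of Dnah1 was 0.27 in place of 0.82, and 17 members were called lower (23.9%, against 6.98% of all probe sets) and 0 higher (7.56% of all). They belonged to 16 genes, with 11 probe sets in the motile set and 6 in the transport set. Both Cfap144 probe sets were among them, at -1.68 ± 0.21 and -1.65 ± 0.26 (limma adjusted p = 0.00478 and 0.0104). Tekt1 stood at -1.19 ± 0.20 (limma adjusted p = 0.0125) and Ccdc65 at -1.70 ± 0.31 (0.0162). Cfap77, a protein inside the doublet microtubules, stood at -1.34 ± 0.25 (0.0182) and Ift172 at -1.10 ± 0.23 (0.026). Dnai1 stood at -1.35, Rsph1 at -1.03, Dnah1 at -1.01, Ift88 at -0.83 and Cfap299 at -1.78. Ccdc65 and Dnai1 lay under 4 in every CHF lung, and Dnah1 read at most 4.01 in the CHF ketotifen lungs. Keeping sham placebo lung 1 in the fit and leaving out only lungs 2 and 3 gave 16 calls (6.35% of all probe sets were called lower and 6.79% higher), of which 15 were among the 17.

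**Figure D4:**
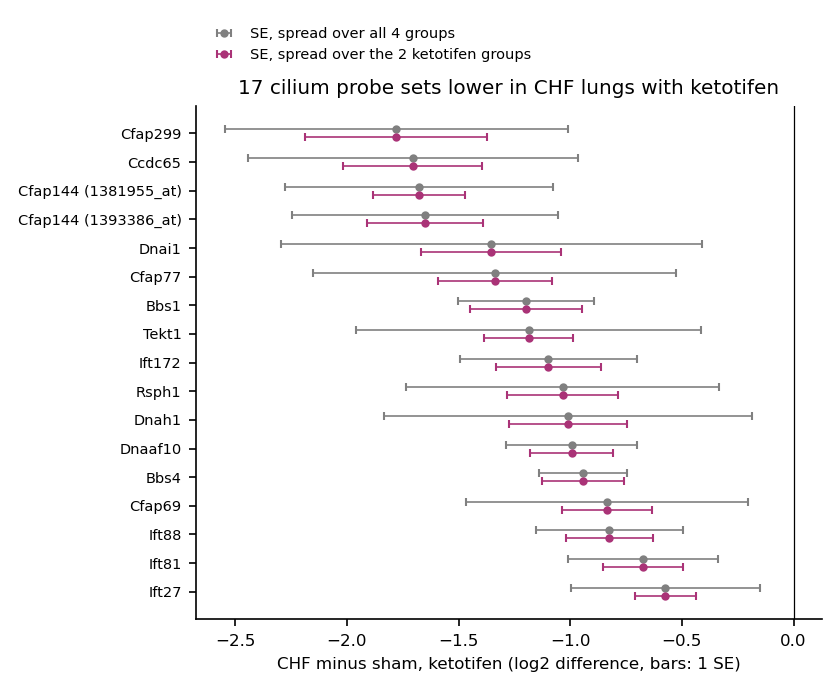
Log2 difference between CHF and sham lungs with ketotifen for the 17 cilium probe sets called lower when only these 2 groups enter the fit. Points are differences, and bars are the SE with the spread from all 4 groups (grey) or from the 2 ketotifen groups (purple). The differences run from -1.78 for Cfap299 to -0.57 for Ift27, and the 2 estimates of the spread change the bars and not the points.

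The 17 calls depended on single lungs of this small arm. Leaving out 1 of the 6 lungs gave between 3 calls (without CHF ketotifen lung 1, where 2.65% of all probe sets were called lower) and 12 (without CHF ketotifen lung 3, 2.93% of all). There were 5 without sham ketotifen lung 3 (3.31%), 8 without sham ketotifen lung 1 (4.14%) or CHF ketotifen lung 2 (4.22%), and 11 without sham ketotifen lung 2 (4.94%). The lungs with cardiomyocyte signal, sham placebo lung 3 and sham ketotifen lungs 1 and 2, were also left out of the fit of all 4 groups. This left 1 lung in the sham ketotifen group. The median member difference was then -0.46 and 61 of 71 lay below 0. With CHF ketotifen arrays 1 and 3 averaged into 1 sample, the test with all 4 groups called 1 member in place of 3. Of all probe sets 2.96% were then called lower.

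Averaged over both arms, CHF lungs had lower values of 29 cilium probe sets from 26 genes, and 0 were higher. These were 40.8% of the 71 members, against 9.92% of all kept probe sets called lower and 11% called higher. Without the 7 members under 4 in every CHF lung the count was 26 of 64. Of the axonemal dyneins, Dnah1 fell by 2.01 ± 0.58 (SE) and Dnai7 by 1.97 ± 0.41. In the CHF lungs Dnah1 lay between 3.47 and 4.19, close to background, so that the size of its difference is uncertain. Dnai1 (-2.17) and Dnah7 (-1.99) were also called, but reached 4 in 3 and 5 lungs, all of them sham, so that the size of their differences is uncertain. The limma adjusted p of these 4 lay between 0.0113 and 0.0411. Of the BBSome 5 of 7 probe sets fell, among them Bbs1 at -1.04 ± 0.22 and Bbs4 at -0.78 ± 0.14, and so did 8 of 22 IFT probe sets, among them Ift172 at -1.11 and Ift88 at -0.93. The called Cfap genes were Cfap77, Cfap299, Cfap144, Cfap161 and Cfap69, between -2.04 and -1.53. The called Cfap69 probe set lay between 3.64 and 4.28 in the CHF lungs, close to background, so that the size of its difference is uncertain. Ccdc65, under 4 in every CHF lung, stood at -2.27, Tekt1 at -1.95 ± 0.55 and Rsph1 at -1.61 ± 0.50, and Cep162 had the smallest adjusted p of all members, at -0.86 ± 0.13 (limma adjusted p = 0.0045). Foxj1 was not called at -1.07 ± 0.46 (limma adjusted p = 0.113), and 0 of 4 Spag probe sets were called. The median over members was -0.78, against -0.02 over all probe sets, and 63 of 71 lay below 0 (51.8% of all).

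Most of these calls did not hold with every single lung left out. Of the 29, 9 kept an adjusted p under 0.05 in all 12 runs: Bbs1, Bbs4, Ccdc65, Cep162, both Cfap144 probe sets, Dnaaf10, Dnai7 and the dim Ift81 probe set. Another 11 lost it in 9 or more of the 12 runs. The call was lost in 11 runs for Dnai1, Dnah1 and Cfap161, in 10 for Dnah7 and Rsph1 and in 9 for Tekt1. The count also depended on single lungs: it was 52 without sham placebo lung 1 (12.5% of all probe sets called lower) and 9 without sham placebo lung 3 (5.18%). It lay between 13 and 19 without any other single lung (5.73% to 9.72%). Without both sham placebo lungs 2 and 3, 1 member was called, Cfap144 at -0.99 ± 0.18 (limma adjusted p = 0.0404), where 0.538% of all probe sets were called lower and 1.26% higher. Cep162 then stood at -0.71 (limma adjusted p = 0.0561), Ccdc65 at -1.17, Dnai7 at -1.18, Bbs4 at -0.70 and Dnah1 at -0.76. The median member difference was -0.29, and 54 of 71 lay below 0. Without the 3 lungs of largest beta-actin difference 0 members were called (1.19% of all probe sets), with a median of -0.29 and 51 of 71 below 0. Without the 3 lungs with cardiomyocyte signal 0 members were also called, where calls over all probe sets went from 3467 to 60, but the median was -0.73 and 65 of 71 lay below 0.

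Ketotifen was compared with placebo in CHF rats, which asks whether the drug moved the cilium genes in the disease. By limma, 0 of 71 members were called (1.22% of all probe sets were called, 0.393% lower and 0.822% higher). At an unadjusted p under 0.05, 4 members were lower and 0 higher, against 10.5% and 6.63% of all probe sets. The 4 were Bbs4 at -0.54 ± 0.20 (limma adjusted p = 0.197), Bbs1 at -0.75 ± 0.31, Dnaaf10 at -0.66 ± 0.29 and Ift70a1, an IFT-B subunit, at -0.85 ± 0.38. The values above 0 with the smallest p were 0.55 for Tekt2, 0.16 for the brightest Spag9 probe set and 0.21 for Cep162. The median was -0.14, against -0.04 over all probe sets, and 49 members lay below 0 (55.2% of all probe sets). The groups did not overlap in 11 members that were lower with ketotifen (15.5% of all probe sets) and in 1 that was higher, Cep162 (9.86% of all).

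In sham rats 0 members were called for the drug, where 0.0847% of all probe sets were called, 0.0423% in each direction. At an unadjusted p under 0.05, 23 were lower (7.66% of all probe sets) and 0 higher. Of the 71 differences 70 lay below 0 (50.2% of all), with a median of -0.64, and Tekt3 alone lay above, at 0.38. The groups did not overlap in 7 members that were lower with ketotifen (8.87% of all) and in Tekt3, which was higher (7.5% of all). Cep162 stood at -0.99 ± 0.19 (limma adjusted p = 0.0867), the dim Ift81 probe set at -0.92 ± 0.18 (0.105), Ift46 at -0.64 and Dnai7 at -2.02. Without sham placebo lungs 2 and 3 the median turned to 0.11 and 19 of 71 lay below 0. Without sham placebo lung 1 instead, 35 members were called lower, where 2.65% of all probe sets were called lower (722 were called in either direction).

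The test of whether surgery acted differently in the 2 arms called 0 members, against 0.369% of all probe sets in either direction. By unadjusted p under 0.05, 3 members were higher (4.44% of all) and 0 lower: Cep162 at 1.20 ± 0.27 (limma adjusted p = 0.12), the dim Ift81 probe set at 0.90 ± 0.26 and the brightest Spag9 probe set at 0.46 ± 0.19. A positive value means that the CHF difference was less negative with ketotifen, and 10 of 71 members lay below 0 (53.1% of all). The median interaction was 0.51 over all members and 1.02 in the motile set, and without sham placebo lungs 2 and 3 the median over all members was -0.30.

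Other airway cell markers moved with the cilium genes only in part. The 6 club cell genes, markers of the secretory cells that share the small airways with ciliated cells, had mean log2 values of 9.18, 11.90 and 12.13 in the sham placebo lungs and 8.69, 8.05 and 9.77 in the CHF placebo lungs. They were at 9.91, 11.24 and 9.04 with sham ketotifen and at 7.46, 7.10 and 7.82 with CHF ketotifen. In CHF against sham, 4 of the 6 fell with ketotifen, 0 of 6 with placebo (4 at an unadjusted p under 0.05, limma), and 5 of 6 in the average. Of all probe sets 6.61%, 0.0242% and 9.92% were called lower in these comparisons, and 9.62% were lower at the unadjusted level with placebo. The 5 goblet and gland genes kept had means of 4.28, 6.47 and 9.16 in the sham placebo lungs and between 4.55 and 6.87 in the other 9. Sham ketotifen lung 2 had the club cell mean of 11.24 and the goblet and gland mean of 6.87, but a motile set deviation of 0.30. That deviation was 3.11 in sham placebo lung 2. Of the ciliated cell list 7 genes were measured, 4 of them members, with means of 6.41, 9.95 and 8.75 in the sham placebo lungs and between 5.68 and 7.37 elsewhere. The 6 airway basal cell genes were not kept and reached at most 6.67, for Krt15 in sham placebo lung 3. The 9 cartilage genes were not kept and reached at most 4.78, for Col9a2 in sham ketotifen lung 1. Col9a2 read 4.40 in sham placebo lung 2 and between 3.21 and 3.47 in the other 10 lungs. In sham placebo lung 3, 1 probe set of Acan read 3.52 (at most 2.08 elsewhere), 1 of Col2a1 3.00 (at most 2.48) and Matn1 2.64 (at most 2.42). These values are near background. The other Acan probe set read 2.253 in this lung and the other Col2a1 probe sets 2.356 and 2.365, each the lowest of the 12 lungs.

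Markers of other lung cells differed between the same lungs and groups. The 8 alveolar type 2 cell genes had means between 12.93, in sham placebo lung 2, and 13.81. Sham placebo lung 2 also had the lowest mean of the 6 alveolar type 1 cell genes, 10.29 (at most 12.11), and of the 5 macrophage genes, 6.61 (7.75 to 10.57 elsewhere). It had the highest mean of the 9 smooth muscle genes, 10.63 (8.29 to 9.30 elsewhere). In CHF against sham with ketotifen 6 of 7 endothelial genes fell and 4 of 5 macrophage genes rose by limma, while with placebo 0 of either list were called. Of all probe sets 6.61% were called lower and 6.36% higher with ketotifen, and 0.0242% and 0.145% with placebo. In the average 5 of 7 endothelial genes fell and 5 of 5 macrophage genes rose, against 9.92% of all probe sets called lower and 11% called higher. The part of these cell mixtures in the cilium differences was not tested.

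**Figure D5:**
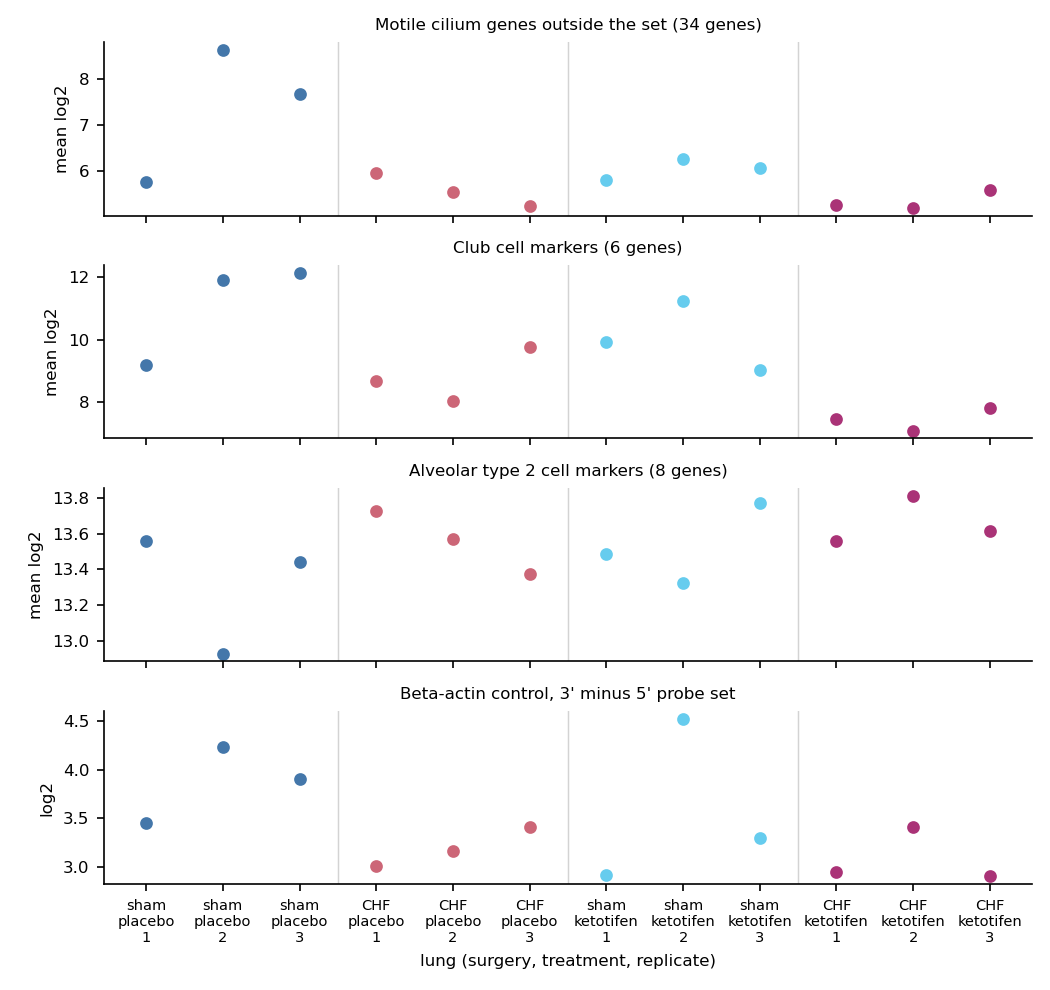
Mean log2 value per lung of 34 motile cilium genes outside the set, 6 club cell markers and 8 alveolar type 2 cell markers, and the difference between the 3′ and 5′ probe sets of the beta-actin control. Colours mark the 4 groups, in the order sham placebo, CHF placebo, sham ketotifen and CHF ketotifen, and the axes do not start at 0. Sham placebo lungs 2 and 3 are highest for the motile cilium genes and the club cell markers, and sham ketotifen lung 2 has the largest beta-actin difference, 4.52.

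RNA quality and heart muscle signal were set beside the cilium genes lung by lung. Sham ketotifen lung 2 had the largest beta-actin difference, 4.52, and the highest cardiomyocyte mean, 9.46, and a motile set deviation of 0.30. Sham placebo lung 2 had a motile set deviation of 3.11 with a cardiomyocyte mean of 3.02 and a beta-actin difference of 4.23. Sham placebo lung 3 had a motile set deviation of 1.69 with a cardiomyocyte mean of 8.29 and a beta-actin difference of 3.90. The part of RNA quality in the differences was not tested.

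Cilium genes with other names, from lists written for this work, were set beside the members. Of 34 other motile cilium genes kept, 34 lay below 0 in CHF against sham with placebo, with a median of -1.98, and 0 were called (30 at an unadjusted p under 0.05, limma). Of all probe sets 48.2% lay below 0, 0.0242% were called lower and 9.62% were lower at that unadjusted level. Iqub, a radial spoke protein, came nearest at -1.98 ± 0.39 (limma adjusted p = 0.0746). With ketotifen 32 of 34 lay below 0, with a median of -0.70, and 2 fell: Dnal1, an outer-arm dynein light chain, at -1.30 ± 0.28 (limma adjusted p = 0.0169) and Tppp3, a tubulin-binding protein abundant in ciliated cells, at -1.23 ± 0.33 (0.037). The share, 2 of 34, was not above the 6.61% of all probe sets called lower. In the average of both arms 14 of the 34 fell and 0 rose, against 9.92% of all probe sets called lower and 11% called higher. Dnal1 had a mean of 5.49 in CHF ketotifen lungs against 6.76 with CHF placebo, a difference of -1.26 ± 0.28 (limma adjusted p = 0.0579).

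A further list held primary cilium and transport genes from outside the set, 49 in number. Transport genes also serve motile cilia, so the list does not separate primary cilia from motile ones. The mean log2 value of these 49 genes was highest in sham placebo lungs 2 and 3, at 7.57 and 7.15, against at most 6.68 in any other lung. Their median difference was -0.59 with placebo, with 44 of 49 below 0, 27 lower at an unadjusted p under 0.05 and 0 called by limma. Of all probe sets 48.2% lay below 0 and 9.62% were lower at the unadjusted level. With ketotifen the median was -0.23, and 3 fell and 1 rose, where 6.61% of all probe sets were called lower and 6.36% higher, so neither share stood above the background. Among these were Ttbk2, the kinase that licenses cilium growth, at -1.03 ± 0.20 (limma adjusted p = 0.0121) and Cc2d2a, a transition zone protein, at -1.09 ± 0.31 (0.0435). Rab11a, a GTPase of recycling endosomes, rose by 0.73 ± 0.17 (0.0223). Ttbk2 was also the 1 gene of the list called for ketotifen against placebo in CHF rats, at -0.97 ± 0.20 (limma adjusted p = 0.0461). In the average of both arms 17 of the 49 fell and 1 rose, with a median of -0.44. Of all probe sets 9.92% were called lower and 11% higher in the average.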

How the data were processed

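The 12 arrays were read as log2 values per probe set, as deposited. Per the submitters' processing notes, the authors used GCRMA and R 2.5.0 to make them. GCRMA models background from probe base content, normalizes arrays to each other and summarizes probe sets, so that values near background, about 2 to 4, flatten. Other settings, scan dates and batches: not given in the sources used here. The number of arrays limits the precision.

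Groups came from the labels' source names. Control probe sets (57) entered no test. Symbols came from the platform annotation (20826 probe sets with 1 symbol, 436 with several, 9780 with none), and all 77 member symbols were the same by Entrez identifier in RefSeq. Tests were two-sided in limma 3.58.1 (R 4.3.3), in 1 fit of all 12 arrays with 4 group means and 8 residual degrees of freedom, eBayes with trend, and Benjamini-Hochberg adjustment over 16536 kept probe sets. The average effect is the mean of the surgery differences of both arms. SEs are those of the moderated fit. The p-values measure the spread between rats of a group.

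The members and lists were chosen with earlier results of these data known. Members named were those called in any comparison, the 3 of highest mean per role, those of smallest p per direction (10 for CHF against sham with placebo and for the drug in sham rats, 5 otherwise), Foxj1, Cep162, and genes whose probe sets differed in sign. From the other lists, the 3 genes of smallest p were named. The genes with X-box windows, the Cfap genes among the 17 calls of the ketotifen arm, and the markers Krt15, Col9a2, Acan, Col2a1 and Matn1 were named after their values were seen. Leaving out sham placebo lungs 2 and 3, the 3 lungs of largest beta-actin difference or the 3 with cardiomyocyte signal, and averaging 2 arrays, were chosen after seeing the data.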

Additional observations from a re-analysis of the deposited data

How the results depend on the processing

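Of 12 results (members called and median difference in 6 comparisons), the medians kept their sign with the other filters and scalings, with 1 probe set per gene, and with each single lung left out. Leaving out 1 lung gave 0 to 49 called members with placebo, 0 to 11 with ketotifen, 0 to 35 for the drug in sham rats, 0 to 8 for the interaction, 9 to 52 for the average and 0 in every case for the drug in CHF. The medians then ranged from -1.27 to -0.57, -0.42 to -0.35, -1.04 to -0.31, 0.18 to 0.93, -0.93 to -0.53 and -0.22 to -0.01. Of all probe sets, 0% to 4.49% were called lower in these runs with placebo and 1.8% to 8.32% with ketotifen. The share was 0.0121% to 2.65% for the drug in sham rats, 5.18% to 12.5% for the average and 0.0544% to 4.18% for the drug in CHF. For the interaction 0.127% to 1.83% were called in either direction. Without a filter 1 of 97 members was called with ketotifen and 13 in the average, among 1156 and 2311 calls over all 31042 probe sets. With a filter at log2 of 6 it was 0 of 44 with placebo and 17 in the average, among 31 and 3213 calls over all probe sets. Array weights gave 53 with placebo, 3 for the drug in CHF, 7 with ketotifen, 12 for the drug in sham, 3 for the interaction and 47 for the average, among 3236, 4134, 4139, 702, 1132 and 6069 calls over all 16536 probe sets. With only the compared groups in the fit it was 0 with placebo and 17 with ketotifen, among 0 and 2404 calls over all probe sets.

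Without sham placebo lungs 2 and 3 the calls were 0 with placebo (median -0.14), 16 with ketotifen and 1 in the average (median -0.29), with medians of 0.11 for the drug in sham and -0.30 for the interaction. Leaving out the 3 lungs of largest beta-actin difference also left 1 sham placebo lung. The medians were -0.14 with placebo, -0.29 in the average and 0.10 for the drug in sham. Leaving out the lungs with cardiomyocyte signal left 1 sham ketotifen lung, with medians of -0.88 with placebo, -0.46 with ketotifen and -0.73 in the average. With CHF ketotifen arrays 1 and 3 averaged, 0 members were called with placebo, 1 with ketotifen and 14 in the average. Of all probe sets 0%, 2.96% and 7.08% were called lower in these comparisons. Apart from fewer samples, the cause of these shifts was not tested.

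The numbers in the titles did not pair the lungs: deviations of 18 same-number pairs correlated between -0.35 and 0.26. With the number as a replicate block, 1 member was called with placebo, 2 with ketotifen (Dnaaf10 was lost), 25 in the average and 0 in the other 3 comparisons. Calls over all probe sets were 27 with placebo, 1899 with ketotifen and 3290 in the average. They were 145 for the drug in CHF, 6 for the drug in sham and 37 for the interaction. Probe sets near background bound how small a difference can be seen in genes such as Dnai1 and Tekt4.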

Other observations

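Genes that switch on or carry out the making of many cilia in one cell did not move as one list. Of 8 such genes kept, 2 rose and 3 fell in the average CHF effect, and 2 rose in CHF against sham with ketotifen. Of all probe sets 11% were called higher and 9.92% lower in the average, and 6.36% higher with ketotifen. Cdk1, a cell cycle kinase, rose by 3.12 ± 0.49 (SE, limma adjusted p = 0.00508) in the ketotifen arm, from a mean of 4.05 in sham to 7.17 in CHF lungs. Plk4, the kinase that starts centriole duplication, rose by 1.36 ± 0.28 (limma adjusted p = 0.0142). Both also act in dividing cells. In the same comparison 9 of 10 proliferation genes rose, a list that itself includes Cdk1, against 6.36% of all probe sets called higher. The part of cell division in these values was not tested. Ccp110, a centriole cap protein that blocks cilium growth, fell in the average by 1.00 ± 0.29 (limma adjusted p = 0.0362).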
